A study of Mus musculus with 10 samples.

Results

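The MHC class II presentation genes described here are H2-Aa, H2-Ab1, H2-Eb1, Cd74, H2-DMa, H2-DMb1 and Ciita. These 7 genes were chosen by symbol and not by a measured value, and they fill 8 of the 37447 rows of the authors' expression table, because Ciita has 2 rows. RNA was sequenced from microglia of mouse brainstem in 3 groups, all aged 6 weeks. The LCM_GFP group (n = 4, 3 female and 1 male) held GFP expressing microglia cut by laser from cryosections of briefly fixed tissue. The FACS_GFP group (n = 3, 2 female and 1 male) held GFP expressing microglia sorted by flow cytometry from dissociated tissue after a Percoll gradient. The FACS_WT group (n = 3, 3 male) held microglia of wild-type mice, sorted like those of FACS_GFP, and is the group whose strain is labelled, as C57BL/6. The promoter that drives GFP and the strain of the GFP mice are not given in the sources used here. Laser capture, fixation with paraformaldehyde and extraction with proteinase K and acid phenol occur together in LCM_GFP, while the sorted cells were extracted with TRIzol, so these factors cannot be told apart. The labels call the libraries biological replicates without naming the animals, so the p-values measure the spread between these libraries.

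MHC class II molecules are pairs of an alpha and a beta chain that display peptides from endosomes to CD4+ T cells. The invariant chain, Cd74, fills the peptide groove until endosomal cathepsins cut it down, and the H2-DM pair then exchanges the remaining fragment for other peptides. Ciita, the class II transactivator, acts on promoters already held by the RFX complex, CREB and NF-Y, and is induced by interferon-gamma. Microglia of healthy tissue are known for low class II, whereas dendritic cells, B cells and macrophages at brain borders are known for high class II.

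The antigen-binding chains H2-Aa (alpha), H2-Ab1 (beta) and H2-Eb1 (beta), the peptide exchange genes H2-DMa and H2-DMb1, and the closely related H2-DMb2 lie together on chromosome 17. The promoters of 4 of these genes are shown because they carry the boxes through which Ciita and its partners are known to act. They are RefSeq windows of 300 bases around the annotated start, read 5′ to 3′ on the gene's strand, in build GRCm38.p6. H2-Aa is at chr17:34287774-34288073 (minus strand), H2-Eb1 at chr17:34305617-34305916 (plus strand), H2-DMb1 at chr17:34152941-34153240 (plus strand) and H2-DMb2 at chr17:34144999-34145298 (plus strand). Capitals mark 3 motifs that were searched on both strands and do not overlap each other: the Y box (TGATTGG), the X box (AACNGATGA) and the cyclic AMP response element (TGACGTCA).
H2-Aa: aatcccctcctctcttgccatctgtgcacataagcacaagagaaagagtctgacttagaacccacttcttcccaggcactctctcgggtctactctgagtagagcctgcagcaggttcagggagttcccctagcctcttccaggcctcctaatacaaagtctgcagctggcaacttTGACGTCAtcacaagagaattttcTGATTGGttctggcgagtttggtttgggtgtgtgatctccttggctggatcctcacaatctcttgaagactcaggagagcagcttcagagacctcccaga
H2-Eb1: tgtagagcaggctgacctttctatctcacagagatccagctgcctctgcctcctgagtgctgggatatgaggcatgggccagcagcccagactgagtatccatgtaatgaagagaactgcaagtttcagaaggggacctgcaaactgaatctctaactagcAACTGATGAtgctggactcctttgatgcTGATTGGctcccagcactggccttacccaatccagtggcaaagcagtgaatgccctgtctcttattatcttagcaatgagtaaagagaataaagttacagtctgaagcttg
H2-DMb1: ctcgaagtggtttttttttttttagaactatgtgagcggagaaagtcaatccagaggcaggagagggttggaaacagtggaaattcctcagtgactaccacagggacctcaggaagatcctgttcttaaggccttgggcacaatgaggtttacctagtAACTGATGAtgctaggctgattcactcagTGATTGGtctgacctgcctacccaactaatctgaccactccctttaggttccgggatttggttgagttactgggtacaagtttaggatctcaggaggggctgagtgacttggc
H2-DMb2: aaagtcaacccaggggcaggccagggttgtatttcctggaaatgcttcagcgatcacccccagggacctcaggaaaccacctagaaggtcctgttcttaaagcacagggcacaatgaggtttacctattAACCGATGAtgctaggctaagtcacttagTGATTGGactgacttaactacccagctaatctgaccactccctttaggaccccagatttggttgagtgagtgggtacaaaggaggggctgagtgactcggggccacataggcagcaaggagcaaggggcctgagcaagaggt

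The Y box letters began at positions −50 (H2-Aa), −61 (H2-Eb1), −63 (H2-DMb1) and −92 (H2-DMb2) relative to the start. The X box letters stood upstream of the Y box with 19 bases between them in H2-Eb1 and 20 in both H2-DMb1 and H2-DMb2. In H2-Aa the exact X box letters were not found, and the response element stood upstream of the Y box with 16 bases between them. A box that departs from the searched letters would be missed. Of 32851 RefSeq promoter windows of this length, 7.82% held the Y box letters, 0.648% the X box letters, 1.79% the response element and 0.0609% (20 windows) both boxes. The letters were written down with these promoters in view, so their presence is a description and no finding. The 2 windows of H2-DMa held none of the 3 motifs. Only 4 of the 7 members had a window. H2-Ab1, Cd74 and Ciita had none and were not searched, so nothing is said of their motifs.

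The cell type named in the labels was checked against 15 microglia markers, among them Cx3cr1, P2ry12, Csf1r and Tmem119. All 15 were above 1 FPKM (fragments scaled to transcript length and to the number of mapped fragments) in every library. Their summed level was 1731 to 3748 FPKM in LCM_GFP, 5654 to 7056 in FACS_GFP and 6960 to 9230 in FACS_WT. Summed levels of 6 markers each were 2563 to 6660 FPKM (oligodendrocyte), 641 to 1548 (neuron) and 434 to 823 (astrocyte) in LCM_GFP, against at most 32.8, 7.62 and 32.8 in the sorted libraries. Cx3cr1 itself had 64.6 to 72.5 FPKM in FACS_GFP and 123 to 146 FPKM in FACS_WT. In these bulk samples fewer cells of a type and less RNA per cell cannot be told apart. Some genes of the Y chromosome went against the label in 2 laser-captured libraries labelled female. Library 1 had Uty at 15.6, Kdm5d at 3.26, Eif2s3y at 2.25 and Ddx3y at 0.198 FPKM. Library 3 had Kdm5d at 5.96 and Uty at 0.286 FPKM, with Ddx3y and Eif2s3y listed at 0. Xist went with the label in both, at 14.0 FPKM in library 1 and 32.8 FPKM in library 3. Library 2 of FACS_GFP, labelled male, had Xist at 3.91 FPKM beside Uty at 28.5 FPKM. These 3 libraries stayed in the fits. For the captured comparisons, member values without one of them are given where a call changed or a difference moved by over 1.5 times. The files give no read counts, so the depth is unknown on an absolute scale. From the steps between low values, depth ran from 0.993 to 1.33 relative to library 1 of FACS_GFP among the sorted libraries, and from 0.812 to 1.06 relative to library 1 of LCM_GFP among the captured ones.

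In the sorted microglia the peptide exchange gene H2-DMa was far the most abundant of the 7 genes, followed by Cd74, and the transactivator was near 0. In FACS_GFP the levels, which are scaled by transcript length, were 434 ± 76.4 FPKM (SD, n = 3) for H2-DMa and 86.6 ± 20.0 for Cd74. They were 42.5 ± 14.7 for H2-Ab1, 25.2 ± 12.98 for H2-Aa, 23.0 ± 3.18 for H2-DMb1, 9.94 ± 5.70 for H2-Eb1 and 0.152 ± 0.0361 for Ciita. H2-Ab1 overlapped with H2-Aa, and H2-Aa with H2-DMb1, while the other neighbours in that order did not overlap. FACS_WT gave 389 ± 46.2 FPKM (SD, n = 3) for H2-DMa, 79.7 ± 9.46 for Cd74, 26.1 ± 4.68 for H2-DMb1, 26.1 ± 2.53 for H2-Ab1, 15.6 ± 5.76 for H2-Aa, 7.90 ± 1.93 for H2-Eb1 and 0.206 ± 0.0384 for Ciita. There only H2-DMb1 and H2-Ab1 overlapped as neighbours. In LCM_GFP every pair of neighbours overlapped, so no order could be read.

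**Figure D1:**
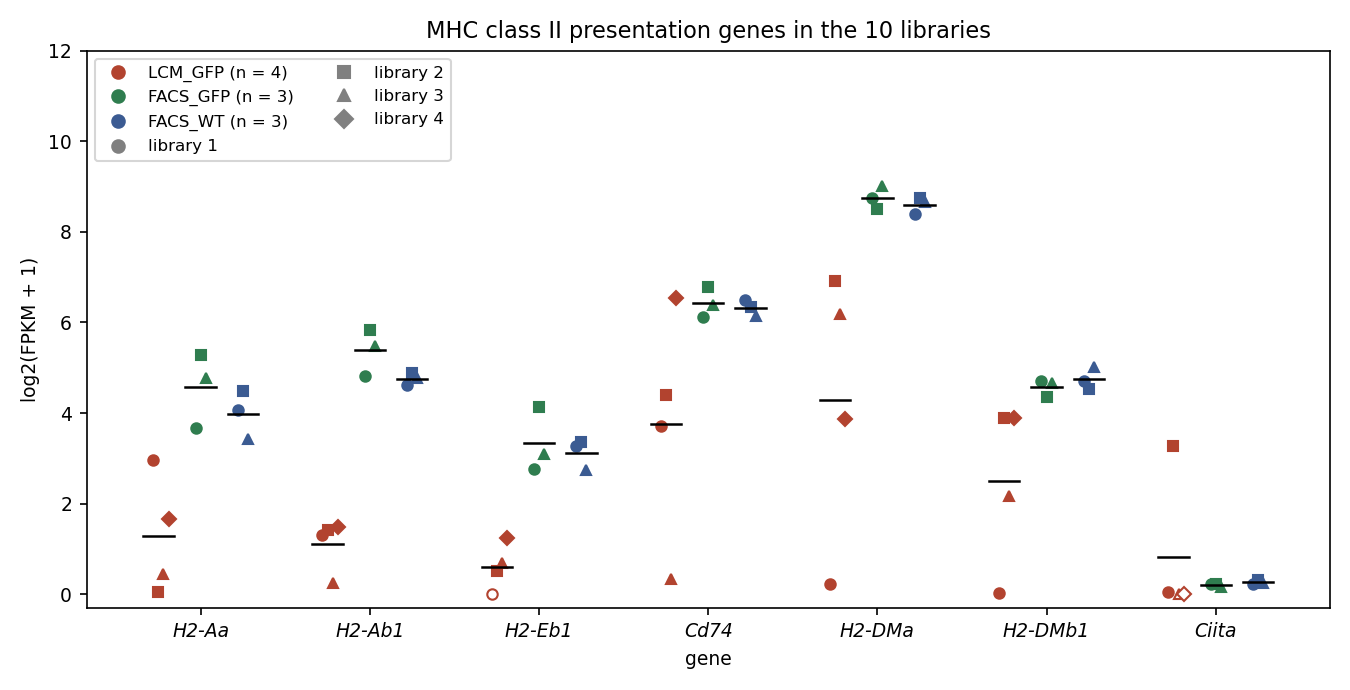
Level of each class II gene on the log2(FPKM + 1) axis in all 10 libraries, with 1 point per library, open points for values listed at 0 and a line at each group's mean. The captured libraries lie below every sorted library for H2-Aa, H2-Ab1, H2-Eb1, H2-DMa and H2-DMb1, and library 4 of LCM_GFP reaches the sorted level of Cd74 at 92.2 FPKM.

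The comparison of LCM_GFP with FACS_GFP asks how the isolation method changes the profile of GFP expressing microglia. All 3 antigen-binding chains and H2-DMa were lower in the captured libraries, whereas Cd74 and H2-DMb1 did not pass the test. Groups were compared with limma on log2(FPKM + 1), and a gene is called when its Benjamini-Hochberg adjusted p over all genes tested is under 0.05. Of the 8 rows, 6 passed the filter on low values (at least 1 FPKM in at least 3 of the compared libraries), and both rows of Ciita did not. H2-Aa and H2-Eb1 passed only through the sorted libraries, so a gene like them had to be lower to be tested. The calls of H2-Aa and H2-Eb1 and the counts over members are therefore given as a description. Of the 6 rows, 4 were called lower and 0 higher, against 19.6% called lower and 12.5% called higher among the 13403 genes tested, 32.1% in both directions. The groups did not overlap, with every captured library lower, for 5 of the 6 rows, against 31.2% of all genes tested. The median log2 difference was −3.01 over the 6 rows and −0.60 over all genes.

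H2-Ab1, the beta chain of the I-A molecule (ENSMUSG00000073421, mm9 chromosome 17, 34400153 to 34406363), had 1.48, 1.68, 0.192 and 1.78 FPKM in the 4 captured libraries. It had 27.2, 56.5 and 43.8 FPKM in FACS_GFP. The groups lay far apart, with the highest captured library at 1.78 FPKM and the lowest sorted one at 27.2 FPKM. The log2 difference was −4.27 (SE 0.509, limma adjusted p = 0.000699), a 19.3-fold lower level on the log2(FPKM + 1) scale, and the call held under all 19 alternatives run.

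H2-Aa, the alpha chain of the same molecule (ENSMUSG00000036594, mm9 chromosome 17, 34406275 to 34424772), had 6.76, 0.0350, 0.366 and 2.17 FPKM in LCM_GFP. The sorted GFP libraries had 11.8, 37.7 and 26.3 FPKM, and library 1 of both groups came closest to each other without overlap. The log2 difference was −3.29 (SE 0.785, limma adjusted p = 0.0159). H2-Aa was tested only through the sorted libraries, so its call is a description. The call ended without FACS_GFP library 2 (limma adjusted p = 0.0889) and without FACS_GFP library 3 (limma adjusted p = 0.0811). The annotated spans of H2-Aa and H2-Ab1 overlap by 89 bases in the authors' table, and reads there could be assigned to either gene.

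H2-Eb1, the beta chain of the I-E molecule (ENSMUSG00000060586, mm9 chromosome 17, 34442827 to 34453144), was listed at 0 in library 1 of LCM_GFP and had 0.419, 0.613 and 1.35 FPKM in the other captured libraries. FACS_GFP had 5.78, 16.4 and 7.61 FPKM. All captured libraries lay below all sorted ones, and the log2 difference was −2.72 (SE 0.498, limma adjusted p = 0.00513). H2-Eb1 too was tested only through the sorted libraries, so its call is a description. Its partner alpha chain, annotated as the pseudogene H2-Ea-ps, was listed at 0 in all 10 libraries, as was H2-Eb2.

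Cd74, the invariant chain (ENSMUSG00000024610, mm9 chromosome 18, 60963501 to 60972300), had 12.2, 20.0, 0.270 and 92.2 FPKM in LCM_GFP. In FACS_GFP it had 69.0, 108 and 82.5 FPKM. Library 4 of LCM_GFP lay inside the sorted range while the other captured libraries lay below it. The log2 difference was −2.68 (95% interval −5.54 to 0.19, limma adjusted p = 0.132). Single captured libraries moved it in both directions: without library 4 it was −3.61 and passed the test (limma adjusted p = 0.0397), and without library 3, the lowest, it was −1.54 (limma adjusted p = 0.150). With captured libraries 2 and 4 alone it was −0.96 (limma adjusted p = 0.298). The summed level of 9 perivascular macrophage markers was also highest in that library among the captured ones, at 20.5 FPKM against 2.52 to 7.62 FPKM, with Mrc1 at 5.83, Lyve1 at 5.86 and Cd209f listed at 0. It was 23.6 to 52.6 FPKM in FACS_GFP, and its part in the level of Cd74 was not tested.

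H2-DMa, the alpha chain of the exchange factor (ENSMUSG00000037649, mm9 chromosome 17, 34272126 to 34276046), ranged widely in LCM_GFP with 0.163, 119, 72.0 and 13.7 FPKM. FACS_GFP held 426, 362 and 514 FPKM, and no captured library reached that range. The log2 difference was −4.45 (SE 1.43, limma adjusted p = 0.0461). Without LCM_GFP library 1, the lowest, it was −3.09, and without LCM_GFP library 2, the highest, it was −5.32. This call lay close to the threshold and ended in 10 of 19 alternatives. Leaving out LCM_GFP library 4 gave limma adjusted p = 0.0946, and leaving out FACS_GFP library 1, 2 or 3 gave limma adjusted p = 0.116, 0.110 and 0.127.

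H2-DMb1, its beta chain (ENSMUSG00000079547, mm9 chromosome 17, 34290016 to 34297168), had 0.0192, 13.7, 3.48 and 13.8 FPKM in LCM_GFP and 25.2, 19.3 and 24.4 FPKM in FACS_GFP. The groups did not overlap, but the log2 difference of −2.08 did not pass the test (95% interval −4.23 to 0.07, limma adjusted p = 0.121). Without LCM_GFP library 1, the lowest, it was −1.26 (limma adjusted p = 0.105), and with captured libraries 2 and 4 alone −0.69 (limma adjusted p = 0.0705). Of the 50-base stretches of its GENCODE M21 transcripts, 27.2% also occur in H2-DMb2, so the split of reads between these 2 genes is uncertain. None of the 50-base stretches of H2-Aa, H2-Ab1, H2-Eb1, Cd74 and H2-DMa occurs in another gene (0%).

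Ciita, the transactivator (ENSMUSG00000022504, mm9 chromosome 16, 10480236 to 10527657), had 8.69 FPKM in library 2 of LCM_GFP, 0.0382 in library 1, and was listed at 0 in libraries 3 and 4. FACS_GFP had 0.167, 0.179 and 0.111 FPKM, and FACS_WT 0.175, 0.249 and 0.194 FPKM. The single high library did not stand highest for H2-Aa, H2-Ab1, H2-Eb1 or Cd74 among the captured libraries, but it did for H2-DMa. Marker sums of several cell types were also highest of the captured libraries there: microglia (3748 FPKM), oligodendrocyte (6660), B cell (219) and dendritic cell (31.8 FPKM against 5.15 to 14.9 FPKM). Among the 9 dendritic cell markers Itgax stood at 16.5 FPKM in library 2, Flt3 at 4.15 and Zbtb46 at 0.478 FPKM, the lowest captured value, with Clec9a, Cd209a, Ccr7 and Clec10a listed at 0. Their part in the level of Ciita was not tested. The second Ciita row (ENSMUSG00000075404), which lies inside the span of the first, was listed at 0 in all captured libraries and reached at most 0.0428 FPKM in the sorted ones.

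The comparison of LCM_GFP with FACS_WT shares the captured libraries with the one above and is therefore given beside it, without a count of genes in common. Again 4 of 6 tested rows were called lower and 0 higher, against 19.1% lower and 12.3% higher of the 13415 genes tested, 31.4% in all. Here 5 of 6 rows did not overlap, all with lower captured libraries, against 29.6% of all genes. The log2 difference of H2-Ab1 was −3.64 (SE 0.484, limma adjusted p = 0.00112), with 23.4, 28.5 and 26.3 FPKM in FACS_WT. H2-Eb1 differed by −2.52 (SE 0.440, limma adjusted p = 0.00390), with 8.72, 9.28 and 5.70 FPKM in FACS_WT. H2-Eb1 and H2-Aa were again tested only through the sorted libraries, so both calls are a description. H2-Aa, at 15.7, 21.3 and 9.75 FPKM in FACS_WT, differed by −2.71 (SE 0.747, limma adjusted p = 0.0275), and its call ended without LCM_GFP library 3 (limma adjusted p = 0.0513) or any FACS_WT library (limma adjusted p of 0.107, 0.118 and 0.0795). H2-DMa, at 338, 428 and 401 FPKM in FACS_WT, differed by −4.30 (SE 1.42, limma adjusted p = 0.0495), or by −2.94 without LCM_GFP library 1 (limma adjusted p = 0.0195). That call ended in 11 of 19 alternatives, among them LCM_GFP without library 4 (limma adjusted p = 0.0997) and FACS_WT without library 1, 2 or 3 (limma adjusted p = 0.112, 0.118 and 0.126). With the labelled sex as a covariate the difference was −1.70 for H2-DMa and −3.94 for H2-Aa. Sex overlaps with the groups here, since FACS_WT is all male. That fit therefore rests on LCM_GFP library 2, the single male captured library. It had the highest H2-DMa and the lowest H2-Aa of the captured libraries.

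Cd74 and H2-DMb1 did not pass the test against FACS_WT either. Cd74 had 88.8, 80.5 and 69.9 FPKM there, a range that library 4 of LCM_GFP exceeded, and differed by −2.58 (95% interval −5.40 to 0.24, limma adjusted p = 0.142). Without that library the difference was −3.51 (limma adjusted p = 0.0412), without LCM_GFP library 3 it was −1.44 (limma adjusted p = 0.167), and with captured libraries 2 and 4 alone −0.86 (limma adjusted p = 0.328). H2-DMb1 had 25.2, 22.0 and 31.2 FPKM and differed by −2.26 (95% interval −4.39 to −0.12, limma adjusted p = 0.0973), or by −1.44 without LCM_GFP library 1 (limma adjusted p = 0.0763) and by −0.86 with captured libraries 2 and 4 alone (limma adjusted p = 0.0574).

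The counts over members moved with single sorted libraries. Against FACS_GFP, 2 rows were called without FACS_GFP library 2 or without FACS_GFP library 3. Against FACS_WT, 2 rows were called without FACS_WT library 1, 2 or 3. Over all genes the number called fell as well, from 4305 to between 1042 and 1087 without a FACS_GFP library and from 4207 to between 1089 and 1160 without a FACS_WT library. H2-Ab1 and H2-Eb1 were called in each of these fits, and the call of H2-Eb1 remains a description because of the filter. Without LCM_GFP library 1, 4 rows were called in both comparisons, and without LCM_GFP library 3, 4 rows against FACS_GFP and 3 against FACS_WT. Over all genes, 5434 of 13045 were called against FACS_GFP without library 1 and 4541 of 12831 without library 3. Against FACS_WT these numbers were 5257 of 13044 and 4390 of 12838. With libraries 2 and 4 of LCM_GFP alone, 4 rows were called in each. That fit called 4985 of 11547 genes against FACS_GFP (4084 lower) and 4686 of 11586 against FACS_WT (3798 lower). There no gene can pass the filter of 3 libraries through the captured ones alone. Genes present only in captured libraries were thus not tested, so its counts and their direction are a description.

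Microglia markers were also lower in the captured libraries, so the members were rescaled to the geometric mean of the 15 markers (FPKM + 1), which was 66.0, 168, 154 and 89.6 in LCM_GFP and 300 to 468 in the sorted libraries. On this scale the median of all genes moved from −0.60 to 0.81 against FACS_GFP and from −0.59 to 1.06 against FACS_WT. Of the called genes, 85.2% and 89.7% were then higher, against 39.0% and 39.2% on the deposited scale. H2-Ab1 remained lower against FACS_GFP, by −2.94 (SE 0.685, limma adjusted p = 0.0158), as the 1 of 6 members called, against 3.36% of all genes called lower on this scale. Against FACS_WT none of the 6 was called, with H2-Ab1 at −2.10 (limma adjusted p = 0.0502) and 2 members, H2-Ab1 and H2-Eb1, at an unadjusted p under 0.05. All 6 log2 differences kept a negative sign on this scale in both comparisons, from −0.91 (H2-DMb1) to −3.16 (H2-DMa) against FACS_GFP.

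**Figure D2:**
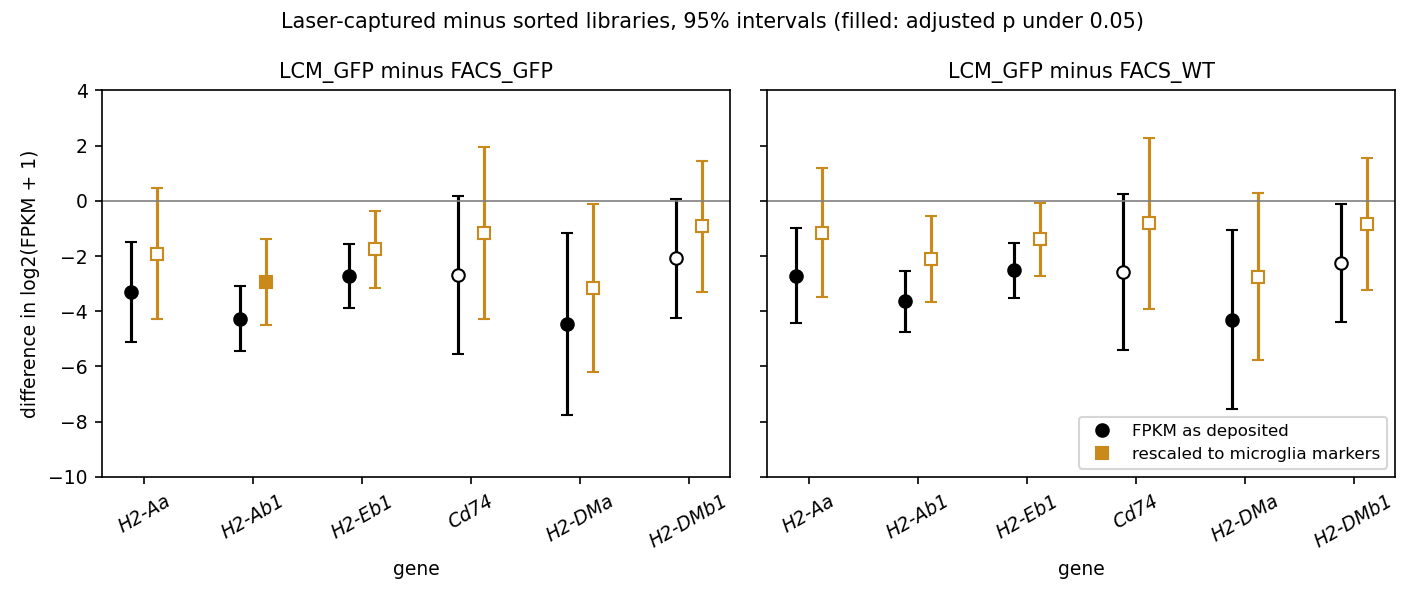
Difference in log2(FPKM + 1) between LCM_GFP and each sorted group for the 6 tested class II genes, with 95% intervals, for FPKM as deposited (black circles) and rescaled to 15 microglia markers (ochre squares). Filled symbols have a limma adjusted p under 0.05: 4 black symbols in each panel, and on the rescaled values H2-Ab1 against FACS_GFP at −2.94.

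The make-up of the pathway was more alike among sorted libraries than among captured ones. The summed level of all members was 500 to 590 FPKM in FACS_WT, 565 to 699 in FACS_GFP, and 20.6, 163, 77.0 and 125 FPKM in LCM_GFP. H2-DMa made up 60.3% to 75.4% of that sum in the sorted libraries. In LCM_GFP it made up 0.791%, 72.8%, 93.6% and 10.95%, while Cd74 made up 59.1%, 12.2%, 0.351% and 73.7%. Captured libraries 2 and 3 were thus mostly H2-DMa, and libraries 1 and 4 mostly Cd74. The 3 antigen-binding chains summed to 1.17 to 8.23 FPKM in the captured libraries and to 41.8 to 111 FPKM in the sorted ones.

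**Figure D3:**
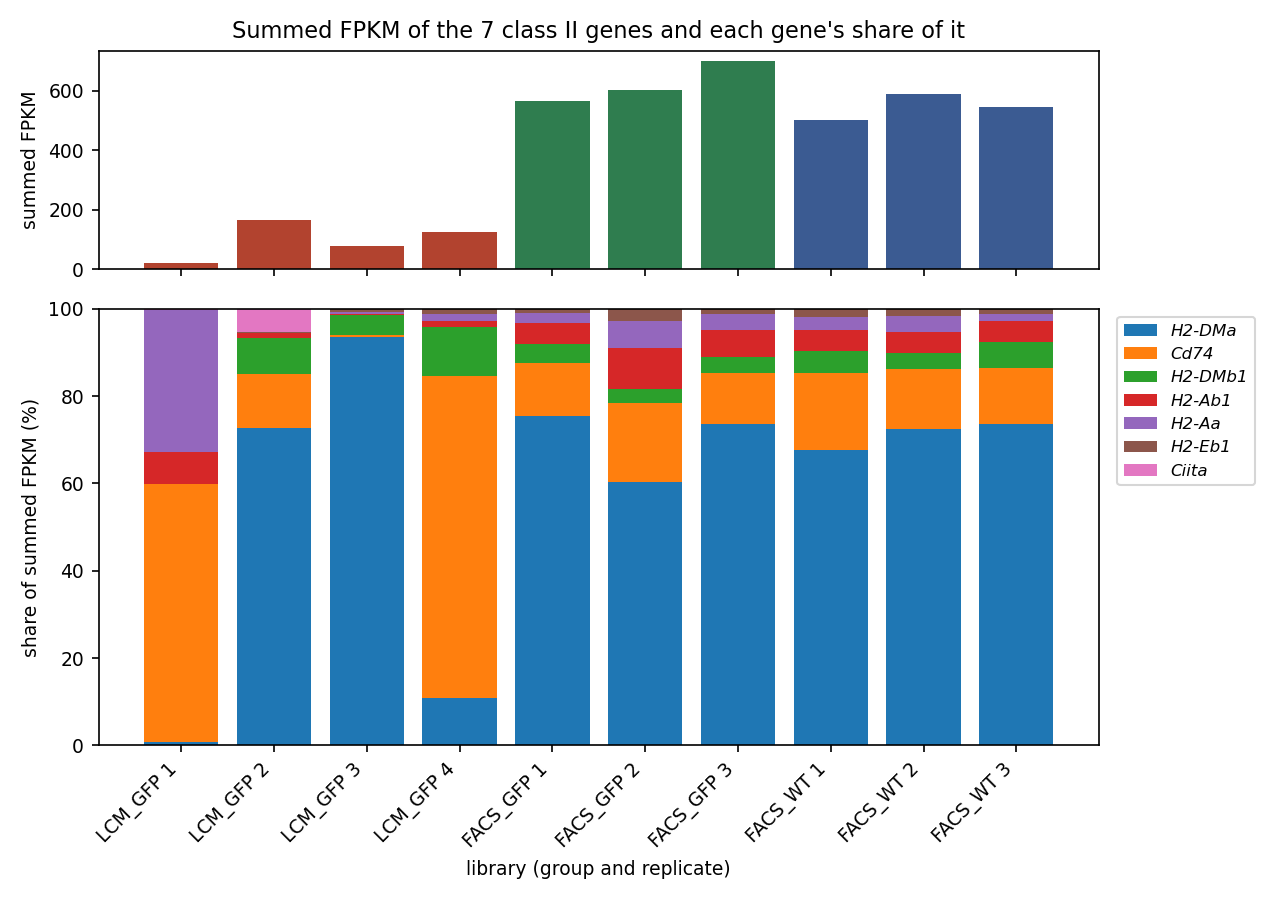
Summed FPKM of the class II genes per library (upper bars) and the percentage contributed by each gene (lower stacked bars, both Ciita rows together). H2-DMa fills most of each sorted bar, 60.3% to 75.4%, whereas the 4 captured bars range from 0.791% to 93.6% H2-DMa.

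FACS_GFP and FACS_WT were both obtained by sorting and differ in genotype and in labelled sex, since FACS_WT is all male. No member was called between them: 0 of 6 tested rows, against 0.110% of 11814 genes (13 genes, 0.0339% higher and 0.0762% lower). At an unadjusted p under 0.05 limma gave 1 row of the 6, beside 1552 of the 11814 genes, so 1 such row is a description. That row was H2-Ab1, at 27.2, 56.5 and 43.8 FPKM in FACS_GFP and 23.4, 28.5 and 26.3 in FACS_WT. Its groups overlapped through library 1 of FACS_GFP, and its log2 difference was 0.63 (95% interval 0.09 to 1.16, limma adjusted p = 0.338). For the remaining members the limma 95% intervals were −0.49 to 1.65 (H2-Aa), −0.56 to 0.96 (H2-Eb1), −0.29 to 0.49 (Cd74), −0.22 to 0.52 (H2-DMa) and −0.54 to 0.19 (H2-DMb1). With labelled sex as a covariate, which here rests on a single male library of FACS_GFP, the log2 differences were 1.09 for H2-Ab1, 0.995 for H2-Eb1 and 1.28 for H2-Aa, with limma unadjusted p = 0.00374, 0.00962 and 0.0368. None of the 6 was called in that fit (limma adjusted p = 0.675 for each of these 3). All 6 rows overlapped between the groups, and 9.29% (lower) and 11.5% (higher) of all genes did not overlap.

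Library 2 of FACS_GFP, the male library of that group, had the highest H2-Aa, H2-Ab1, H2-Eb1 and Cd74 of all 6 sorted libraries and the lowest H2-DMb1. Its H2-DMa was the lowest of FACS_GFP. H2-Aa differed 3.86-fold between its highest and lowest sorted library, H2-Eb1 2.88-fold and H2-Ab1 2.41-fold, while Cd74, H2-DMa and H2-DMb1 differed 1.52-fold to 1.61-fold. Without that library the log2 difference between the sorted groups turned from 0.20 to −0.20 for H2-Eb1 and from 0.10 to −0.07 for Cd74. It fell from 0.58 to 0.23 for H2-Aa and from 0.63 to 0.40 for H2-Ab1, and rose from 0.15 to 0.27 for H2-DMa. With any 1 sorted library left out, the difference of H2-DMb1 lay between −0.29 and −0.04. Perivascular macrophage markers summed to 43.6 FPKM in that library, 52.6 in library 1 and 23.6 in library 3, and Mrc1 had 13.9 FPKM in both libraries 1 and 2 and 5.65 FPKM in library 3. Dendritic cell markers summed to 17.9 to 18.6 FPKM across FACS_GFP. Of the B cell markers, Ms4a1 was at most 0.0358 FPKM in any sorted library, while Ighm stood at 234 to 294 FPKM. Their part in the levels of the members was not tested.

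**Figure D4:**
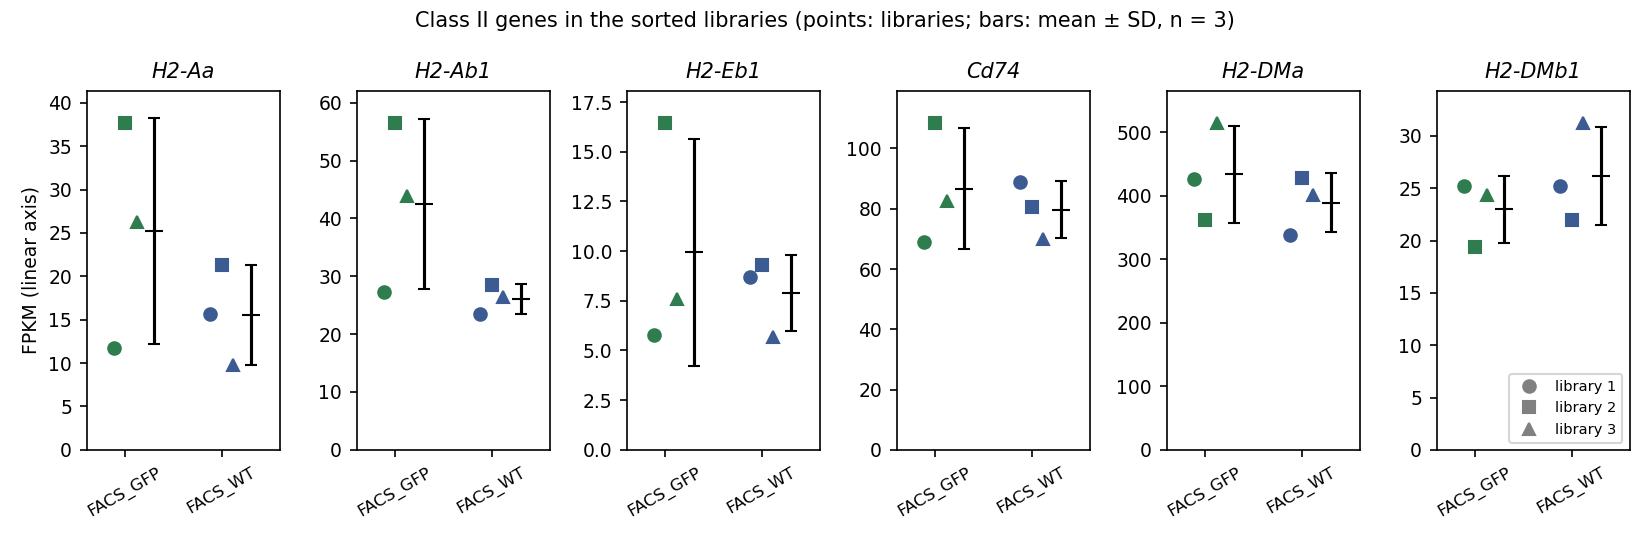
FPKM on linear axes of the 6 class II genes in the sorted libraries, with 1 point per library and bars for the mean ± SD (n = 3 per group). The groups overlap for every gene, and FACS_GFP library 2 (square) is the highest point for H2-Aa, H2-Ab1, H2-Eb1 and Cd74.

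Other genes of the pathway were examined by role from a list of 34, of which 32 were in the table (Irf8 and Sppl2a were not matched) and 28 were tested. Between LCM_GFP and FACS_GFP 16 were lower and 0 higher, with a median log2 difference of −1.91, and between LCM_GFP and FACS_WT 16 were lower and 0 higher, with a median of −2.002. The backgrounds are those given above, and 0 of 28 were called between the sorted groups. There 4 of the 28 had a limma unadjusted p under 0.05, beside 1552 of all 11814 genes. Leaving out FACS_GFP library 1, 2 or 3 left 3 of 27 tested genes called against FACS_GFP, and leaving out FACS_WT library 1, 2 or 3 left 4 of 27 against FACS_WT. Without LCM_GFP library 1 the counts were 17 and 16, and without LCM_GFP library 3 they were 15 and 18. H2-DMb2, H2-Ob, Irf1 and Cd80 passed the filter only through the sorted libraries, so the filter bore on their direction, and the counts that include them are a description.

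Among the genes of peptide exchange, H2-Oa and H2-DMb2 were lower in both comparisons. H2-DMb2 was tested only through the sorted libraries and had to be lower to be tested, so its call is a description. H2-Oa, a chain of H2-O, which restrains H2-DM, had 0.0261, 20.8, 7.62 and 10.2 FPKM in LCM_GFP and 44.0 to 70.7 FPKM in FACS_GFP (log2 difference −3.08, limma adjusted p = 0.0420). H2-Ob, its partner, had 0.215 to 10.7 against 15.5 to 17.2 FPKM (limma adjusted p = 0.1002). H2-DMb2, the near copy of H2-DMb1, was listed at 0 in LCM_GFP library 1, had at most 0.639 FPKM in the other captured libraries and 3.82 to 8.61 FPKM in FACS_GFP (log2 difference −2.56, limma adjusted p = 0.00174). It was lowest of the sorted GFP libraries in library 2, as H2-DMb1 was.

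Of the 7 factors that bind class II promoters, Creb1 and Rfx5 were lower in both comparisons and the 3 NF-Y genes were not called. Creb1 differed by −2.77 against FACS_GFP (limma adjusted p = 0.00432). Rfx5, the DNA-binding subunit of RFX, had 1.28 to 6.39 FPKM in LCM_GFP and 11.2 to 15.5 FPKM in FACS_GFP, a log2 difference of −1.75 (limma adjusted p = 0.0398). The other RFX subunits, Rfxank and Rfxap, were called in neither comparison. Against FACS_GFP they differed by 0.44 (limma adjusted p = 0.626) and −0.13 (limma adjusted p = 0.907). Nfya and Nfyc, subunits of NF-Y, differed by −1.77 (limma adjusted p = 0.109) and 0.85 (limma adjusted p = 0.271). Of 6 tested genes of interferon-gamma signalling, 4 were lower in both comparisons: the receptor chains Ifngr1 and Ifngr2, the kinase Jak1 and the transcription factor Irf1. Irf1 was tested only through the sorted libraries, so its call is a description. Ifngr1 had 23.4 to 139 FPKM in LCM_GFP and 323 to 363 FPKM in FACS_GFP, a log2 difference of −2.30 (limma adjusted p = 0.0198). Socs1, which restrains this signalling, was not tested.

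Of 6 endosomal processing genes, Ctss, Ctsl and Ctsb were lower against FACS_GFP, and Lgmn also against FACS_WT (limma adjusted p = 0.0302). Ctss, the cathepsin that trims the invariant chain, had 63.7, 326, 235 and 119 FPKM in LCM_GFP and 768, 787 and 960 FPKM in FACS_GFP, a log2 difference of −2.42 (limma adjusted p = 0.0119). Ctsd, an aspartic protease, had 441 to 1050 against 901 to 1014 FPKM and was not called (limma adjusted p = 0.320). March1, a ubiquitin ligase that removes class II from the surface, differed by −1.76 (limma adjusted p = 0.0190), and its relative March8 by 0.40 (limma adjusted p = 0.543). The costimulation and adhesion genes Cd80, Cd86, Icam1 and Icosl were all 4 lower against FACS_GFP, and all but Cd86 against FACS_WT. Cd80 differed by −4.16 (SE 0.928, limma adjusted p = 0.0122), with 0.245, 16.4, 0.195 and 1.16 FPKM in LCM_GFP and 44.8 to 50.4 FPKM in FACS_GFP. This gene too was tested only through the sorted libraries, so its call is a description.

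After rescaling to microglia markers, 3.36% of all genes tested were called lower and 19.3% higher against FACS_GFP, with 2.65% lower and 23.2% higher against FACS_WT. Of the 28 genes, 2 were lower against FACS_GFP, both among those that on the deposited scale passed the filter only through the sorted libraries: H2-DMb2 (−1.76, limma adjusted p = 0.0108) and Cd80 (−2.99, limma adjusted p = 0.0463). Another 2 were then higher, Ctsd (1.15, limma adjusted p = 0.0334) and Nfyc (2.36, limma adjusted p = 0.0199). Against FACS_WT, 2 were lower and 3 higher on that scale, and the medians over the list were −0.44 and −0.21.

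**Figure D5:**
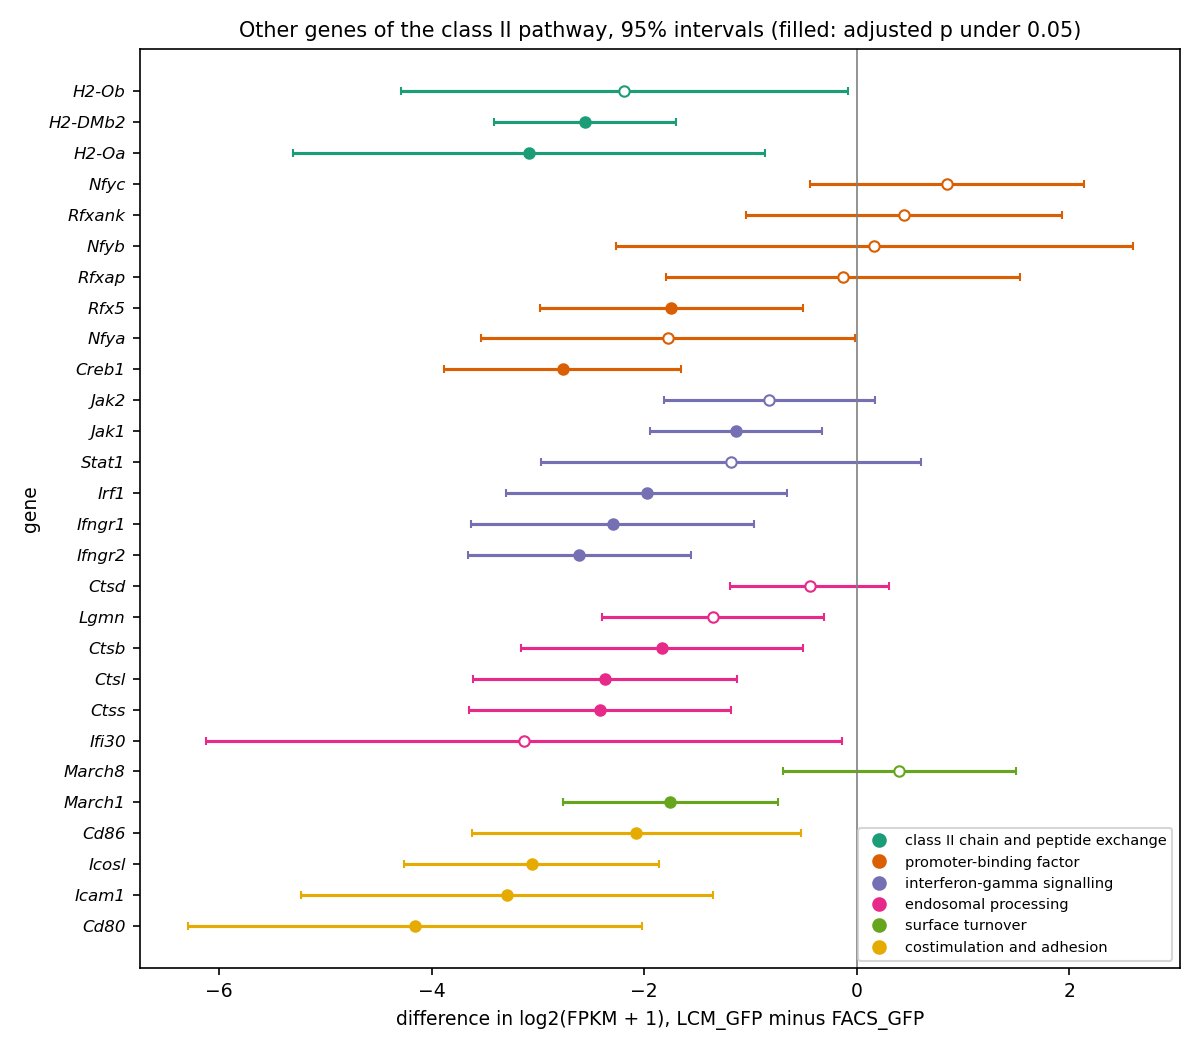
Difference in log2(FPKM + 1) between LCM_GFP and FACS_GFP with 95% intervals for the 28 other class II pathway genes tested, coloured by role, filled where the limma adjusted p is under 0.05. The 16 filled points all lie below 0, with Cd80 at −4.16.

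The genes whose profile over the 10 libraries was most like that of a member were ranked by the root mean square difference of log2(FPKM + 1), each profile centred on its own mean, among 11462 genes. For Cd74, whose own centred profile has a root mean square of 1.91, these were P2rx4 (0.609), Exosc5 (0.668), Gm12571 (0.685), Ing2 (0.691) and Ggh (0.734). P2rx4, an ATP-gated channel, shared the low captured library 3 and the high captured library 4, with 13.2, 24.3, 3.02 and 52.3 FPKM. For H2-Ab1, with a root mean square of 1.99, they were Gm10177 (0.364), Gm15682 (0.397), Gm11425 (0.407), Wbscr22 (0.417) and Egr2 (0.418). These follow the split between captured and sorted libraries, and the other members were left out of this ranking.

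The authors' deposited table of comparisons marked none of the members as significant in any of its 3 comparisons. Its lowest q-values among the members were 0.304 for H2-DMa (captured against sorted GFP), 0.379 for H2-DMa (captured against sorted wild type) and 0.271 for H2-Ab1 (sorted wild type against sorted GFP). In the authors' deposited table the log2 change of H2-Ab1 between captured and sorted GFP libraries was −5.68 with a q-value of 1, and that of H2-DMa was −3.42.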

How the data were processed

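RNA of 10 libraries was measured by sequencing after amplification with the Ovation method, per the labels' protocols. Libraries were grouped by their labels into LCM_GFP (4), FACS_GFP (3) and FACS_WT (3). Per the submitters' processing notes, the tools were Cufflinks 2.0.2, Bowtie2 2.0.0, TopHat2 2.0.4 and CASAVA 1.8.2 (no order is given) and the build was mm9; the annotation release and the treatment of reads with several matches are not given in the sources used here. Expression is in FPKM, the unit in which the authors deposited it. A second table, per the file headers, holds the authors' deposited log2 changes, p-values and q-values per comparison. A 0 may not mean absent RNA, since 33 of 37 mitochondrially encoded genes were at 0 throughout. Why they were at 0 was not tested.

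Each comparison was fitted on its own groups with limma 3.58.1 (R 4.3.3, statmod 1.5.0; trend, robust, two-sided) on log2(FPKM + 1), which understates changes of low genes. Genes with at least 1 FPKM in at least 3 compared libraries were tested, and p was adjusted by Benjamini-Hochberg over all of them. The fit was tested on simulated data. Tables and figures were made with Python 3.11.15, pandas 2.3.3, numpy 2.4.6 and matplotlib 3.10.9. All members are named; of the wider list, the 3 genes with the highest mean FPKM per role, and others chosen after their values were seen. The members and lists were chosen with earlier results of these data known. Alternatives changed the pseudocount, filter, scaling, variance model, covariates and libraries.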

Additional observations from a re-analysis of the deposited data

Results flagged for a closer look

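Within LCM_GFP, the group of 4 libraries, 35 genes of the pathway (members and wider list) were checked for a library far from the other 3, by a gap above Dixon's 95% critical value. This found 7. The check used FPKM without logarithms, and a chance rate of about 1 in 20 holds only for normally distributed values, which was not examined. Genes whose highest captured value was under 1 FPKM were left out. Ciita and Cd40 were therefore checked only through the library that then stood apart, and the number found is a description. Among the members it was Ciita, at 8.69 FPKM in library 2 against 0 to 0.0382 FPKM in the others. Library 2 also stood apart for Cd80, at 16.4 FPKM against 0.195 to 1.16 FPKM, and for the costimulatory receptor Cd40, at 2.95 FPKM against 0.0875 to 0.436 FPKM. Library 1 stood apart for Nfyb, at 85.5 FPKM against 2.06 to 7.78 FPKM, and for Jak2, at 13.2 FPKM against 5.97 to 7.02 FPKM. Library 3 stood apart for Nfya, at 62.4 FPKM against 5.15 to 14.5 FPKM, and for the thiol reductase Ifi30, at 135 FPKM against 0.439 to 19.7 FPKM. Each of the 7 values is the highest of its group.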

How the results depend on the processing

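With FACS_GFP, H2-Ab1 stayed called under all 19 alternatives, H2-Eb1 lost the call in 2, H2-Aa in 4 and H2-DMa in 10; with FACS_WT the numbers were 1, 1, 9 and 11. No member's difference between captured and sorted libraries changed sign. Members called against FACS_GFP (4) became 1 after rescaling to microglia markers and ranged from 2 to 4 with 1 library left out. Against FACS_WT (4) they became 2 with a pseudocount of 0.1, without the filter, with median ratio scaling or with quantile normalization, 0 after rescaling, and 2 to 4 with 1 library left out. Wider list genes called against FACS_GFP (16) became 8 (median ratio), 10 (quantile) and 4 (rescaled), and 3 to 18 with 1 library left out; against FACS_WT (16) they became 9 (median ratio), 5 (rescaled), 3 (sex covariate) and 4 to 18. All genes called against FACS_GFP ranged from 1042 to 5434 and against FACS_WT from 1089 to 5257 with 1 library left out, and the latter became 1760 with sex as covariate. Between the sorted groups the 13 genes called became 7 without the filter, 41 after rescaling and 4 to 15 with 1 library left out. There the difference of H2-DMa turned to −0.10 with sex as covariate and that of H2-DMb1 to 0.0933 after rescaling, while leaving out 1 library gave −0.20 to 0.49 for H2-Eb1 and −0.0721 to 0.250 for Cd74. Of the called genes, 39.0% were higher against FACS_GFP, 59.9% under median ratio scaling; against FACS_WT these shares were 39.2% and 59.5%. With sex as covariate the comparison with FACS_WT rests on the single male captured library. The causes were not tested.

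The labels do not say whether a replicate number marks a shared animal or batch. Same-numbered deviations correlated at −0.040 to 0.0064 across genes between captured and sorted groups. Between the sorted groups they correlated at 0.141, 0.0102 and 0.214, and these values do not settle whether those libraries share a batch. With the replicate block, which drops LCM_GFP library 4, 5 members were called in each captured comparison (Cd74 added, limma adjusted p = 0.0220 and 0.0211), 0 between the sorted groups, and 10 wider list genes against FACS_WT. Over all genes the block fit called 3370 of 13403 against FACS_GFP, 3334 of 13415 against FACS_WT and 19 of 11814 between the sorted groups. Array weights added Cd74 and H2-DMb1 in both captured comparisons and ended the calls of H2-Aa and H2-Eb1 against FACS_GFP (limma adjusted p = 0.0799 and 0.0702), where 4 members were called. Over all genes the weighted fit called 5388 of 13403 against FACS_GFP and 5266 of 13415 against FACS_WT. The files give no counts, so the precision that depth allows is unknown.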
